A study of Mus musculus with 4 samples.

Results

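The genes of nucleoporins and nuclear transport receptors were followed in F123-ESCs, a mouse embryonic stem cell line. Members were all rows of the expression table whose symbol starts with Nup and a digit, Nupl, Ipo and a digit, Xpo and a digit or t, Kpna, Kpnb or Tnpo, together with Tpr. This rule, which uses no measured value, found 47 of the 24026 genes in the table, 24 of them nucleoporins and 23 transport receptors. F123 is a male F1 hybrid line with an S129 mother and a CAST father, so that each autosomal gene is present as an S129 and a CAST copy that differ at SNPs. All 4 libraries, replicates 1 to 4, came from untreated cells of this 1 line, which were grown on feeder fibroblasts, kept without feeders for at least 2 passages and harvested about 48 h after plating. PolyA RNA was sequenced by stranded RNAseq with paired reads of 150 bp, and only reads that cover a SNP between the strains enter the values. There is no other condition, so the data give the level of each member, its difference between the alleles and its spread over the libraries.

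The nuclear pore complex is the channel through which RNA and proteins pass between the nucleus and the cytoplasm. A scaffold of outer rings (the Y complex) and an inner ring holds a central channel of nucleoporins rich in phenylalanine-glycine repeats, with filaments on the cytoplasmic side and a basket on the nuclear side. Receptors of the importin and exportin families carry cargo through the channel, and the GTPase Ran, loaded with GTP in the nucleus, makes importins release and exportins bind their cargo. In embryonic stem cells importin alpha paralogues are known to import pluripotency factors, among them the product of Pou5f1.

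Values are RPKM, which count reads per kilobase of gene length and are scaled to the reads assigned to the same allele of the library. A level is the mean of both alleles within a library, given as mean ± SD over the 4 libraries. Since only reads over a SNP count, while the length is that of the gene, a level also depends on how many SNPs a transcript holds. That number was not analysed here, so an order between genes describes reads assigned to alleles and not the amount of RNA. The reads assigned to either allele numbered between 34120416 in replicate 4 and 56627972 in replicate 1, and a member of at least 1 RPKM rested on 163 to 10823 reads in each of its 8 values. The 8 embryonic stem cell markers summed to between 7698 and 9330 RPKM per library. Most of this sum was Dppa5a, at 7111 RPKM, and Pou5f1 was lowest at 29.5 RPKM. The 7 feeder fibroblast markers summed to between 178 and 224 RPKM and the 5 primitive endoderm markers to between 45.0 and 52.2 RPKM, with no marker of either list at 0 in all libraries. Most of the fibroblast sum was Col1a2, at 166 RPKM with the length used in the table and 26.3 RPKM with its longest coding transcript, and Lum was lowest at 0.0462 RPKM. Most of the endoderm sum was Dab2, at 44.2 RPKM with the length used and 6.09 RPKM with its longest coding transcript. Sox7 was lowest of that list at 0.273 RPKM. The part of fibroblasts and endoderm cells in the levels of the members was not tested, and in bulk RNA fewer cells of a type and less RNA per cell cannot be told apart.

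The 47 members had a median of 22.8 ± 1.71 RPKM (SD, n = 4), compared with 0.975 RPKM over all genes and 1.68 RPKM over the 20253 protein-coding genes. At least 1 RPKM was measured for 42 members, where the share was 49.7% of all genes and 54.9% of protein-coding genes. At least 10 RPKM was measured for 35 members, against 24.5% of all genes and 27.8% of protein-coding genes. Levels ran from 0 for Nup160 to 182 ± 10.9 RPKM for Kpna2. The median of the role groups was highest for the Y complex, at 37.3 ± 4.28 RPKM over 6 genes, and was 32.7 ± 3.44 RPKM over the 11 import receptors of the importin beta family and 13.0 ± 0.863 RPKM over the 6 exportins. The Y complex median counts Nup107 and Nup160, whose values at or near 0 may not give the level of their RNA.

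**Figure D1:**
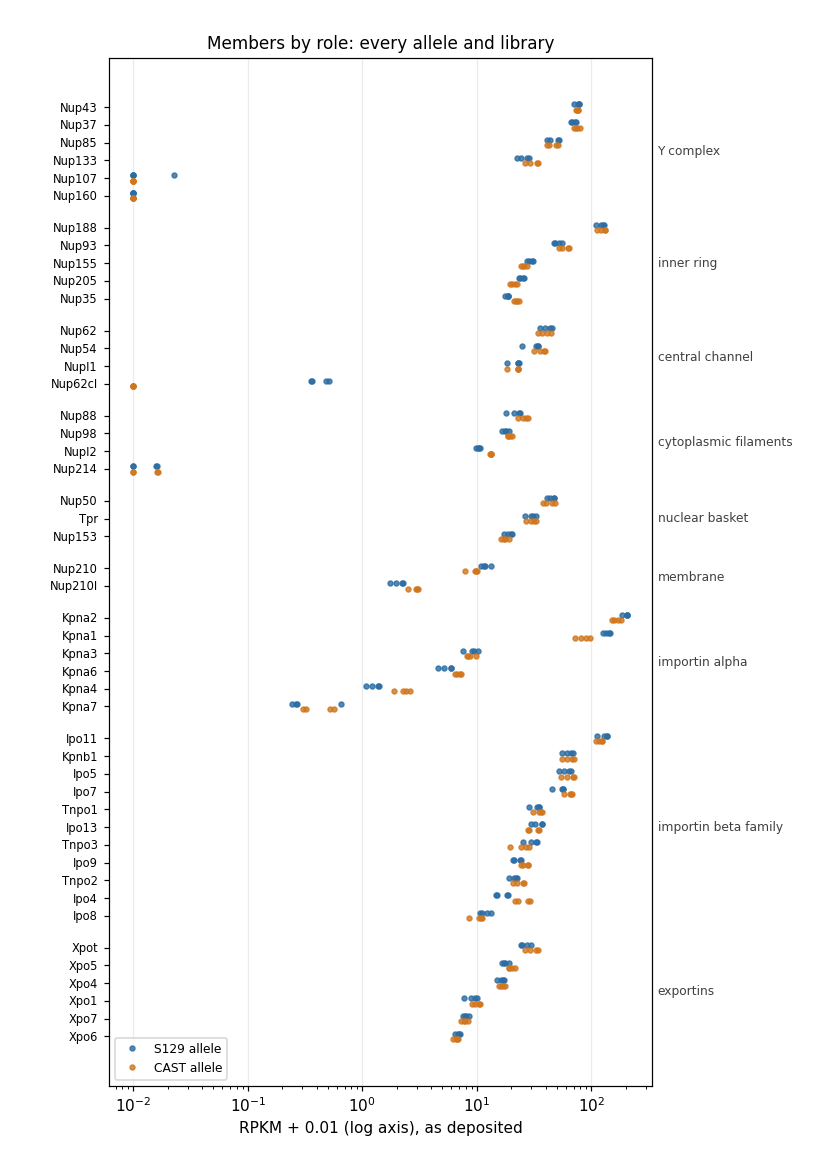
RPKM of each member on the S129 allele (blue) and the CAST allele (orange), 1 point for each of 4 libraries, drawn as RPKM + 0.01 on a log axis and grouped by role. Most members lie between 5 and 100 RPKM on both alleles, whereas Nup107, Nup160 and Nup214 sit at the left edge and Nup62cl has S129 points above and CAST points at the edge.

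In the Y complex, the outer ring of the pore scaffold, 4 of the 6 genes were above 20 RPKM and 2 were at or near 0. Nup43 and Nup37, both peripheral beta-propeller subunits, were highest. Nup43 had 75.7, 77.1, 75.2 and 73.1 RPKM in replicates 1 to 4, and Nup37 had 75.7, 71.0, 68.7 and 73.2 RPKM. These ranges overlapped, so the order of these genes is not resolved. Nup85, a subunit of the short arm, was at 46.4 ± 5.28 RPKM, and Nup133, at the end of the stem, at 28.2 ± 3.33 RPKM.

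The other Y-complex members were at or near 0. Nup160 (ENSMUSG00000051329, chr2:90677215-90736328, plus strand of mm10) was listed at 0 in all 8 values, and Nup107 (ENSMUSG00000052798, chr10:117750621-117792705, minus strand) was listed at 0 in all values but the S129 value of replicate 2, which was 1 read. Nup214 (ENSMUSG00000001855, chr2:31974436-32053975, plus strand), a large nucleoporin of the cytoplasmic filaments, had 4 reads in all, 1 on each allele in replicates 2 and 3. These are genes of the core pore, which every nucleated cell uses. A count of 0 over all 8 columns allows up to 3 reads, or 0.00279 RPKM for the 5684 bp of the longest coding transcript of Nup160, counting error only. No exon base of Nup107 or Nup160 is shared with another annotated gene, and 0.145% of the exon bases of Nup214 are shared on the same strand. Of the protein-coding genes, 12.6% were at 0 in every column and 16.9% had under 0.01 RPKM. How many SNPs these 3 transcripts hold was not analysed here, so their values give the reads that could be assigned to an allele and not the level of the RNA.

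All 5 inner ring genes, whose products form the scaffold around the channel, were above 20 RPKM. Nup188 had 111, 124, 129.7 and 127 RPKM in replicates 1 to 4, above every other nucleoporin. Nup93, which anchors the channel nucleoporins, was at 54.5 ± 4.69 RPKM and Nup155 at 27.4 ± 1.20 RPKM. Nup205, the paralogue of Nup188, had 21.7, 24.2, 23.6 and 21.7 RPKM. Nup35, which contacts the membrane, was lowest with the lengths of the table at 20.4 ± 0.762 RPKM.

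The level of Nup188 depends on the gene length behind the RPKM. The length in the table was 888 bp, that of its first listed transcript, which is annotated as subject to nonsense-mediated decay, whereas the longest coding transcript has 5710 bp. With this length Nup188 was at 19.1 ± 1.26 RPKM, and the difference Nup188 minus Nup205 in log2(RPKM+0.1), the scale of all log2 differences given, turned from 2.42 ± 0.0897 (SD, n = 4) to -0.25. The table used the length of the first listed transcript for 37 members, and 5 members have a longest coding transcript more than 2 times as long as the length used. Beside Nup188 these are Kpna1 (667 against 5039 bp), Ipo13 (557 against 3595 bp), Ipo11 (995 against 4325 bp) and Xpo7 (4472 against 15121 bp). For Nup35 the length used, 2688 bp of a transcript annotated as a retained intron, exceeds the 1559 bp of the longest coding transcript, with which Nup35 was at 35.1 ± 1.31 RPKM, above Nup155 (22.4 ± 0.978), Nup205 and Nup188. For the 42 members of at least 1 RPKM, the plot of levels under both lengths shows which positions in the order rest on this choice.

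**Figure D2:**
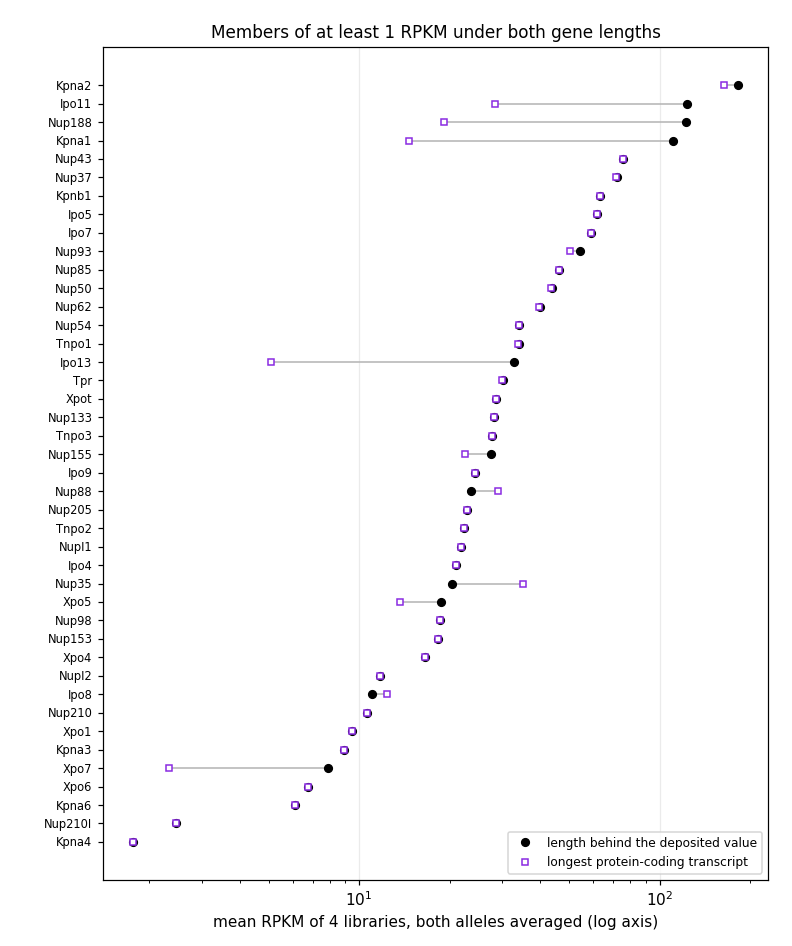
Mean RPKM over 4 libraries of the 42 members of at least 1 RPKM, with the gene length behind the deposited value (black circles) and with that of the longest protein-coding transcript (open purple squares), on a log axis. Most pairs of symbols coincide, and Ipo11, Nup188, Kpna1, Ipo13 and Xpo7 move left by more than 2 times while Nup35 and Nup88 move right.

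The genes of the central channel, whose products carry the phenylalanine-glycine repeats that receptors bind, were above 20 RPKM, except for Nup62cl. Nup62 had 35.0, 44.8, 42.1 and 38.1 RPKM in replicates 1 to 4 and its partner Nup54 had 35.0, 37.1, 35.7 and 28.3 RPKM. Nupl1, which encodes the third channel nucleoporin Nup58, was at 21.8 ± 2.33 RPKM, and 55.4% of its exon bases are shared on the same strand with Atp8a2, Gm49336 and Mir719. Reads in the shared bases cannot be assigned to 1 of these genes here. Nup62cl is a gene of the X chromosome related to Nup62 and had 29, 18, 23 and 12 reads on the S129 allele in replicates 1 to 4 and 0 on the CAST allele. The cells are male and carry 1 X chromosome, from the S129 mother. The log2 difference Nup62 minus Nup62cl was 7.02 ± 0.300 (SD, n = 4). It is overstated, since the level of Nup62cl, 0.209 RPKM, averages in a CAST copy that these cells lack. On the S129 allele alone, Nup62 was at 41.0 RPKM and Nup62cl at 0.418 RPKM.

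On the cytoplasmic face, Nup88 was at 23.7 ± 2.37 RPKM and Nup98, which stands on both faces of the pore and has roles in RNA export, at 18.6 ± 0.900 RPKM. Nupl2, which encodes Nup42, a cofactor of mRNA release, was lower at 11.7 ± 0.274 RPKM, with 11.4, 11.8, 11.7 and 12.0 RPKM in replicates 1 to 4. In the nuclear basket the order was Nup50, Tpr and Nup153, without overlap between the libraries of neighbours in this order. Nup50, which helps release cargo from importin alpha, had 41.8, 46.6, 47.7 and 39.3 RPKM. Tpr, the coiled-coil protein that builds the basket, had 29.7, 31.5, 32.8 and 26.6 RPKM, and Nup153, its anchor at the pore, 18.6, 18.1, 19.6 and 16.9 RPKM. Of the membrane nucleoporins, Nup210 was at 10.6 ± 0.948 RPKM and its paralogue Nup210l, known from testis, at 2.45 ± 0.240 RPKM.

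Importin alpha proteins are the adaptors that bind the classical nuclear localization signal and hand the cargo to importin beta. Kpna2 (ENSMUSG00000018362, chr11:106988629-106999541, minus strand of mm10) was the highest of all members under both gene lengths. It had 204, 206, 204 and 186 RPKM on the S129 allele of replicates 1 to 4 and 158, 180.5, 170.0 and 150.2 RPKM on the CAST allele. The annotation names 1 pseudogene of it, Kpna2-ps, which could share reads. Kpna1 had 109, 119.8, 117 and 99.1 RPKM with the length used in the table, that of a first listed transcript annotated as a retained intron, and 14.7 ± 1.24 RPKM with the longest coding transcript. Kpna3 was at 8.92 ± 0.880 RPKM and Kpna6, which early embryos need, at 6.12 ± 0.521 RPKM, and the 4 libraries of these genes did not overlap. Kpna4 was far lower at 1.77 ± 0.225 RPKM. Kpna7, a paralogue known from oocytes, had 0.575, 0.284, 0.263 and 0.409 RPKM, on 11 to 45 reads a value.

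Kpna2 was above each of the 5 other paralogues in 4 of 4 libraries, with a log2 difference of 0.72 ± 0.0392 against Kpna1, 4.34 ± 0.113 against Kpna3, 4.88 ± 0.0438 against Kpna6, 6.62 ± 0.134 against Kpna4 and 8.61 ± 0.465 against Kpna7 (SD, n = 4). With the longest coding transcripts the difference to Kpna1 rose to 3.47. In all, 15 pairs of paralogues were compared by the exact sign-flip permutation test (two-sided), and each gave p = 0.13, also after Benjamini-Hochberg adjustment over the pairs. This is the smallest p that 4 libraries allow, so the test cannot pass 0.05 and the sizes stand as descriptions. A difference in SNP number between paralogues enters every library alike, so the same order in 4 of 4 libraries does not account for it.

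The promoters of Kpna2 and Kpna4, the highest and the lowest importin alpha gene above 1 RPKM, are shown for the bases directly before the annotated start. Capitals mark matches on either strand to the NF-Y box CCAAT or the GC box GGGCGG. The stretches lie at chr11:106999526-106999645 and chr3:69127093-69127212 (RefSeq, GRCm38.p6, both minus strand) and are written 5′ to 3′.
Kpna2: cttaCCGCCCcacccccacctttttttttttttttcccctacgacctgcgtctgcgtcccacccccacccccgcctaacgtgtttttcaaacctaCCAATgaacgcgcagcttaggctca
Kpna4: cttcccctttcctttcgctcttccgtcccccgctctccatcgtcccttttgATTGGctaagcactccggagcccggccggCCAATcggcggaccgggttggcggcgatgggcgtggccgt
Kpna2 has 1 NF-Y box and 1 GC box in this stretch and Kpna4 has 2 NF-Y boxes. RefSeq promoters, windows of one length around the start, were matched for 38 of the 47 members. Of these, 22 hold an NF-Y box (57.9%), compared with 37.9% of the 27025 promoters of all genes and 39.1% of the 9306 promoters of genes with at least 1 RPKM. A GC box was in 26 (68.4%), against 35.9% of all and 65.0% of expressed genes. The E box CACGTG was in 7 members (18.4%, against 7.24% and 10.8%), the ETS site CCGGAAG in 6 (15.8%, against 9.12% and 18.9%) and the NRF1 core GCATGCG in 5 (13.2%, against 3.64% and 7.14%). Both strands were searched, and none of these motifs contains another, although matches can overlap in part. These counts describe letters and no bound factor.

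Members of the importin beta family bind cargo directly or through an adaptor. All 11 import receptors had at least 10 RPKM. Ipo11, a receptor of ubiquitin-conjugating enzymes, was first at 124 ± 9.05 RPKM, but at 28.4 ± 2.08 RPKM with the longest coding transcript. The next levels were those of Kpnb1 (importin beta itself), Ipo5 and Ipo7, carriers of ribosomal proteins. Kpnb1 had 61.4, 66.8, 69.7 and 55.5 RPKM in replicates 1 to 4, Ipo5 had 59.1, 66.7, 68.8 and 53.1 RPKM and Ipo7 had 60.3, 62.2, 61.6 and 51.9 RPKM. The ranges of these 3 overlapped over the libraries. Within each library Kpnb1 was the highest of them, by a small margin over Ipo5 in replicate 2, whereas Ipo5 and Ipo7 changed order. These differences were not tested.

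The transportins followed. Tnpo1, which imports RNA-binding proteins, had 34.3, 36.1, 35.5 and 29.8 RPKM, and its paralogue Tnpo2 had 21.8, 23.8, 24.1 and 19.8 RPKM. The log2 difference Tnpo1 minus Tnpo2 was 0.60 ± 0.0399 (SD, n = 4), higher in 4 of 4 libraries. Tnpo3, the receptor of SR splicing factors, was at 27.6 ± 3.80 RPKM. Ipo9, a histone importer, was at 24.4 ± 1.92 RPKM, and Ipo4, which also binds histones, at 21.1 ± 2.91 RPKM. Of the exon bases of Ipo4, 55.3% are shared on the same strand with Gm49378, and reads in the shared bases cannot be assigned to 1 of them here. Ipo13, which carries cargo in both directions, was at 32.7 ± 3.60 RPKM and at 5.07 ± 0.557 RPKM with the longest coding transcript. Ipo8 was lowest with the lengths of the table, with 10.8, 11.5, 12.2 and 9.59 RPKM, whereas with coding lengths it was at 12.4 ± 1.24 RPKM and above Ipo13. The log2 difference Ipo7 minus Ipo8 was 2.41 ± 0.0603 (SD, n = 4) with the lengths of the table and 2.24 with coding lengths.

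Among the exportins, Xpot, the carrier of tRNA, was highest with 27.0, 30.0, 31.9 and 25.3 RPKM in replicates 1 to 4. Xpo5, which exports precursors of microRNAs, was at 18.7 ± 1.08 RPKM with a length that matched no annotated transcript and at 13.7 ± 0.791 RPKM with the longest coding transcript. Xpo4, which also imports Sox2, was at 16.5 ± 0.976 RPKM. Xpo1, the receptor of leucine-rich export signals and the exportin of the broadest range of cargo, had 9.21, 10.1, 10.2 and 8.32 RPKM. It was below Xpot by a log2 difference of -1.59 ± 0.0422, below Xpo5 by -0.98 ± 0.0769 and below Xpo4 by -0.80 ± 0.0869 (Xpo1 minus the other, SD, n = 4), in 4 of 4 libraries each. With coding lengths the difference to Xpo5 was -0.53. Xpo6, which exports actin, had 6.35, 6.84, 6.70 and 7.03 RPKM, the lowest mean with the lengths of the table, and Xpo7 was at 7.89 ± 0.396 RPKM, or 2.33 ± 0.117 RPKM with the longest coding transcript. Xpo1 was higher than Xpo6 by 0.48 ± 0.162 on the log2 scale and higher than Xpo7 by 0.25 ± 0.0916, a difference that became 1.97 with the coding lengths.

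The pathway has other genes that the naming rule does not cover, 9 further pore genes and 13 genes of the Ran cycle and of other carriers. These 13 are called carriers for short, although Ran and its regulators are among them. The median was 20.5 RPKM for the pore genes and 33.4 RPKM for the carriers, and all 22 were above 1 RPKM. Cse1l, the exportin that returns importin alpha to the cytoplasm, was highest at 307 ± 33.6 RPKM, or 59.8 ± 6.54 RPKM with the longest coding transcript. Ran was at 33.4 ± 3.92 RPKM, its exchange factor Rcc1 at 32.5 ± 3.96 RPKM and the GTPase-activating Rangap1 at 53.8 ± 6.65 RPKM. Nutf2, which returns Ran to the nucleus, was lower at 8.02 ± 0.749 RPKM, and the annotation names 2 pseudogenes of it, which could share reads. Of the pore genes Rae1, an mRNA export factor that binds Nup98, was highest at 95.8 ± 1.91 RPKM, and Sec13, a subunit of the Y complex shared with the secretory coat, was lowest at 2.18 ± 0.0762 RPKM.

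Alleles were compared within each library, since the S129 and the CAST column of a library are reads of the same RNA, by limma on log2(RPKM+0.1) with Benjamini-Hochberg adjustment over the 13341 genes with at least 1 RPKM summed over both alleles. In limma the variance of each gene is drawn towards that of all genes tested, which enters every SE and p-value given for alleles. The labels do not say whether the libraries came from separate cultures, so the p-values measure the spread between these samples, which may be technical. Of the 42 members tested, 25 were called at an adjusted p under 0.05, a share of 59.5% where the share of all genes tested was 62.7%. The S129 allele was higher in 9 members, against 31.4% of all genes, and the CAST allele in 16, against 31.3%. All 42 are autosomal, and of the 12869 autosomal genes tested 61.4% were called, 28.9% higher on S129 and 32.5% on CAST. Shares and medians over all genes tested also count the X chromosome, of which these male cells hold only the S129 copy. No called member reached a 2-fold difference, which 15.0% of all genes tested did. Without replicate 2 the S129 count was 5 in place of 9, and with the alleles as independent groups, without the pairing by library, the counts were 4 and 7. The share of all genes called in these settings is not given here, so these counts do not set the members apart. The median absolute log2 difference was 0.17 over the members and 0.31 over all genes tested. All genes tested include many of lower level than most members, and the 2 sets were not matched by level.

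Called members of both directions stood in the inner ring, the membrane nucleoporins, importin alpha and the importin beta family. In the Y complex only Nup133 was called, higher on CAST, and in the nuclear basket only Nup153, higher on S129. Nup205 and Nup155 of the inner ring were higher on S129, whereas Nup93 and Nup35 were higher on CAST. Nup54, Nup88 and Nupl2 were higher on CAST, and so were the exportins Xpot, Xpo5 and Xpo1. In the importin beta family Tnpo3, Ipo8 and Ipo11 were higher on S129 and Ipo4, Ipo7, Ipo9 and Tnpo2 on CAST. Kpna1 and Kpna2 were higher on S129 and Kpna4 and Kpna6 on CAST. The membrane nucleoporins diverged, with Nup210 higher on S129 and Nup210l on CAST. With 1 library left out, the calls of Nup153 and Xpo1 were lost whichever it was, that of Ipo11 without replicate 1, 2 or 3, that of Nup54 without replicate 2, 3 or 4, those of Ipo8 and Tnpo2 without replicate 2 or 3 and that of Nup155 without replicate 1 or 2. Nup37 was called, higher on CAST, without replicate 4.

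**Figure D3:**
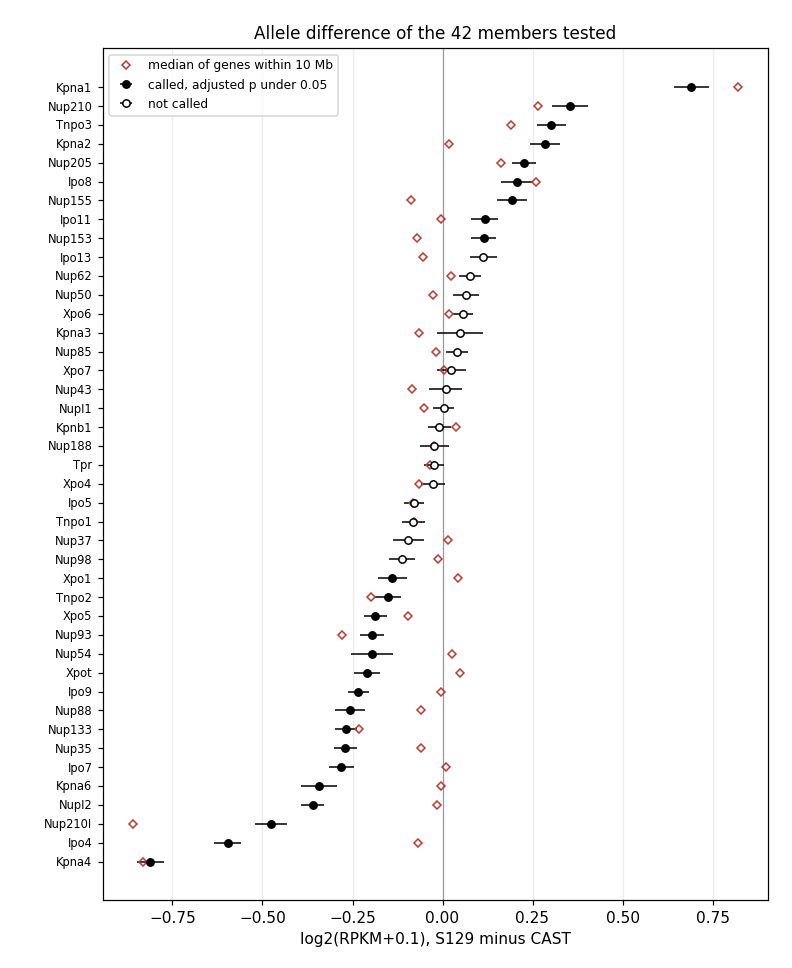
Difference between the alleles, log2(RPKM+0.1) of S129 minus CAST, for the 42 members tested (circles, filled where the adjusted p was under 0.05). Bars are the SE from limma on 4 libraries, with the variance of each gene drawn towards that of all genes tested. Red diamonds are the median difference of the protein-coding genes within 10 Mb, which lie with the member for Kpna4 and Nup133 and beyond it for Kpna1 and Nup210l.

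The largest difference was that of Kpna4 (ENSMUSG00000027782, chr3:69067149-69127113, minus strand of mm10). It had 1.37, 1.21, 1.39 and 1.06 RPKM on the S129 allele of replicates 1 to 4 and 2.38, 2.26, 2.61 and 1.89 RPKM on the CAST allele. Every CAST value was above every S129 value, and the log2 difference was -0.81 (SE 0.0362, adjusted p = 0.00012). The genes in the neighbourhood also had higher CAST values on balance, since the 36 tested protein-coding genes that start within 10 Mb had a median log2 difference of -0.83. Beside them the difference of Kpna4 was 0.022 (SE 0.0516, adjusted p = 0.74), and the adjusted p ran from 0.000119 to 0.74 over all settings.

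Kpna1 (ENSMUSG00000022905, chr16:35978750-36037131, plus strand) was the largest difference towards S129. Its S129 values were 135, 143, 144 and 126 RPKM and its CAST values 81.7, 96.8, 89.8 and 72.6 RPKM in replicates 1 to 4, without overlap. The log2 difference was 0.69 (SE 0.0491, adjusted p = 0.000471), and the gene length does not enter it. The 91 neighbours on chromosome 16 had a median of 0.82. Beside them Kpna1 was at -0.13 (SE 0.0501, adjusted p = 0.0854), the highest adjusted p of any setting, where the lowest was 3.08e-05. Ranbp1, a gene of the Ran cycle on the same chromosome, showed a similar pair of values, with a log2 difference of 0.69 and neighbours at 0.76.

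Nup210l on chromosome 3 turned its direction beside its neighbourhood. The S129 values were 1.95, 2.22, 2.25 and 1.73 RPKM and the CAST values 2.97, 2.96, 3.05 and 2.49 RPKM in replicates 1 to 4. The log2 difference was -0.48 (SE 0.0438, adjusted p = 0.00104) where the neighbours had -0.86. Relative to them Nup210l was higher on S129 by 0.38 (SE 0.0446, adjusted p = 0.00253), which was the only setting with S129 higher. In all the settings without this centring CAST was higher, with an adjusted p of 0.000742 to 0.00736. On chromosome 6, Nup210 had a difference of 0.35 with neighbours at 0.27, and Ipo8 had 0.21 with neighbours at 0.26. On chromosome 8, Nup93 had -0.20 with neighbours at -0.28 and Nup133 had -0.27 with neighbours at -0.23. Beside their neighbours these 4 were not called, with 0.088 for Nup210, -0.052 for Ipo8, 0.083 for Nup93 and -0.035 for Nup133.

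Other members differed where their neighbours were near 0. Ipo4 had 15.1, 18.3, 18.8 and 14.7 RPKM on S129 and 23.0, 29.3, 27.8 and 21.4 RPKM on CAST in replicates 1 to 4. The log2 difference was -0.60 (SE 0.0379, adjusted p = 0.000338) with neighbours at -0.067, and reads in the bases shared with Gm49378 are not separated from it. Nupl2 had 9.79, 10.3, 10.2 and 10.7 RPKM on S129 and 13.0, 13.3, 13.2 and 13.4 RPKM on CAST. Its log2 difference was -0.36 (SE 0.0317, adjusted p = 0.000913) with neighbours at -0.015. For Kpna2, whose S129 values all exceed the CAST values, the difference was 0.28 (SE 0.0416, adjusted p = 0.00464) with neighbours at 0.017, and Kpna6 and Ipo7 were higher on CAST by -0.34 and -0.28 with neighbours at -0.0043 and 0.0085.

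Centred on the genes within 10 Mb, 5 members were called in favour of S129 and 10 in favour of CAST, a share of 35.7% where all genes tested had 57.8%. The median absolute log2 difference then was 0.096 over the members and 0.27 over all genes, again not matched by level. The S129 group held Nup155, Nup153, Nup210l, Kpna2 and Ipo13, of which Ipo13 and Nup210l were not called in this direction without the centring. The CAST group held Nup35, Nup54, Nup88, Nupl2, Kpna6, Ipo4, Ipo7, Ipo9, Xpot and Xpo1, which were all called in the same direction without it. 

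Of the 9 other pore genes, Rae1 was higher on S129 and Ndc1 and Aaas on CAST without centring, 33.3% where all genes tested had 62.7%. Beside their neighbours 1 was higher on S129 and 3 on CAST, 44.4% against 57.8%, since Pom121 was added on CAST. Of the 13 carriers, 5 were higher on S129 (Ranbp1, Hikeshi, Rangap1, Ranbp17 and Snupn) and 2 on CAST (Ran and Nutf2) without centring, 53.8% against 62.7%. Beside their neighbours 4 were higher on S129 and 1 on CAST, 38.5% against 57.8%, where Ranbp1, Ranbp17 and Nutf2 lost their call and Cse1l was called higher on S129. With 1 library left out, Rae1, Ranbp17, Snupn, Ran and Nutf2 lost their call, Ran whichever it was.

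Between the libraries, the members differed by a median SD of 0.13 on the log2(RPKM+0.1) scale over the 42 genes of at least 1 RPKM, and by 0.13 over the 11946 genes of that level, a difference that was not tested. Replicate 4 was the lowest library for 36 of the 42 members (85.7%), compared with 55.1% of all genes. Replicate 1 was lowest for 5 members, against 24.2% of genes, replicate 3 for 1 member, against 10.8%, and replicate 2 for 0, against 9.89%. Replicate 3 was highest for 24 members, against 40.5% of genes, replicate 2 for 15, against 30.5%, replicate 4 for 2, against 16.7%, and replicate 1 for 1, against 12.4%. In replicate 4 the median deviation from the mean of the libraries was -0.16 over the members and -0.098 over all genes. Replicate 4 was also the library with the fewest reads, and the part of depth was not tested. Spearman's rho between the log2 difference of replicate 4 from the others and the coding length was 0.0035 across 41 members and -0.29 across 11106 protein-coding genes, which share the libraries and are not independent.

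**Figure D4:**
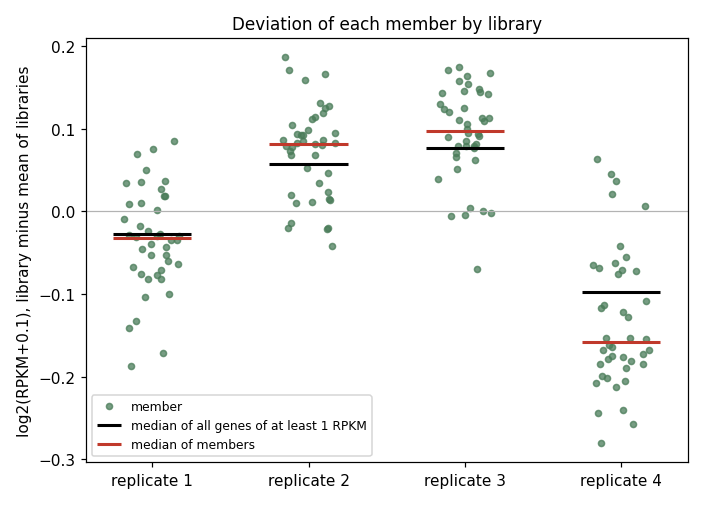
Deviation of each of the 42 members of at least 1 RPKM from its mean over the libraries, in log2(RPKM+0.1), with 1 point for each member in each replicate. Red lines are the median of the members and black lines that of all genes of at least 1 RPKM; in replicate 4 these are -0.16 and -0.098.

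Most members were lower in replicate 4, by unequal amounts. Nup54 had 28.3 RPKM there and between 35.0 and 37.1 RPKM in the other libraries. Tnpo3 had 22.6 RPKM against 26.9 to 30.8 RPKM. Nup37, Nup188 and Nup210 were above their mean over the libraries in replicate 4, and Xpo6 and Nupl2 had their highest level there, with 7.03 and 12.0 RPKM. The other members of at least 1 RPKM were below their mean there.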

How the data were processed

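RNAseq of 4 libraries of untreated F123-ESCs was used. Per the labels and the study's methods, the authors checked reads with FastQC, filtered out ribosomal RNA with SortMeRNA and trimmed the rest with Trimmomatic 0.40. The trimmed reads were aligned with STAR to mm10 masked at SNPs and divided into S129 and CAST reads by SNPsplit. The gene counter and annotation are not given in the sources used here. The authors deposited RPKM per gene, allele and library, 8 columns in all. They also deposited the average RPKM of each allele and its log10(RPKM+1), which were not used.

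Whole reads, allele totals and gene lengths were recovered from the steps between RPKM values, with a tolerance of 0.02 reads, and lengths were matched to GENCODE M21, which holds all 47 members. For Nup155, Nup50 and Xpo5 no annotated length matched and the shortest possible was taken. Alleles were compared by limma 3.58.1 in R 4.3.3 on S129 minus CAST of log2(RPKM+0.1) per library, where both alleles summed to 1 RPKM or more, with Benjamini-Hochberg adjustment and a threshold of 0.05. S129 and CAST columns were paired because they hold the same library's reads. On this scale the differences of low values are understated. Regional values are medians over tested protein-coding genes starting within 10 Mb, members left out. Paralogues were compared by exact sign-flip permutation, and single libraries by Dixon's criterion. Python 3.11.15 with scipy 1.17.1 was used otherwise, and limma and the recovery of reads were tested on simulated data.

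Named genes are all members, grouped by role, and a fixed list of other pathway genes. Values in every library were given for paralogue pairs, for the highest and lowest members of a role, and for large allele differences. Members, lists and markers were chosen with earlier results of these data known. Alternatives were other pseudocounts and filters, no pairing, other centrings, a variance trend, single alleles, the median of libraries, rescaled totals, exon-union lengths and each library left out. Coding transcript lengths were added after seeing the data.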

Additional observations from a re-analysis of the deposited data

Results flagged for a closer look

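Of the 46 members with reads, 2 had 1 library far from the other 3 by Dixon's criterion, which chance gives for about 1 in 20 genes. Nupl1, which encodes the channel nucleoporin Nup58, was at 18.3 RPKM in replicate 4 and at 22.9, 23.0 and 23.0 RPKM in replicates 1 to 3. Both alleles of Nupl1 were low there, with 18.3 RPKM on S129 and 18.4 RPKM on CAST. Of its exon bases, 55.4% are shared with other genes on the same strand. Nup107 of the Y complex was at 0.0063 RPKM in replicate 2 and listed at 0 in the others, which is 1 read.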

How the results depend on the processing

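Without the replicate block, 4 members were called higher on S129 and 7 on CAST, where the pairing gave 9 and 16. By limma in this fit, 0 of the other pore genes were then called higher on S129, and of the carriers 2 on S129 and 1 on CAST. Beside genes within 10 Mb the members called were 5 on S129 and 10 on CAST, and 1 carrier was higher on CAST. With no filter on low values 0 carriers were higher on CAST. Leaving out each library in turn gave 5 to 8 members on S129, the fewest without replicate 2, 0 to 1 pore genes on S129 and 0 to 1 carriers on CAST. Shares of all genes are given above for the paired fit and for centring within 10 Mb, but not for the other settings.

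Centred on genes within 10 Mb, these log2 differences turned their sign: Nup210l (0.38), Nup93 (0.083), Tnpo2 (0.047), Xpo4 (0.040), Kpna4 (0.022), Tpr (0.011), Ipo5 (0.0015), Nup188 (0.0014), Nxf1 (0.091) and Ranbp3 (0.027) to above 0, and Kpna1 (-0.13), Ranbp1 (-0.073) and Ipo8 (-0.052) to below 0. Centred on the autosomal median, Nup188 (9.5e-05), Kpnb1 (0.015), Seh1l (0.016), Nxf1 (0.012) and Ranbp6 (0.021) turned, none of them called. With single libraries left out the sign was not fixed for Nup43 (-0.020 to 0.049), Nup188 (-0.048 to 0.0085), Nupl1 (-0.0030 to 0.0095), Kpnb1 (-0.019 to 0.00026), Seh1l (-0.033 to 0.022), Sec13 (-0.23 to 0.040) and Ranbp6 (-0.059 to 0.094), which were not called either. The cause of these changes was not tested.

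Over all alternatives but the regional one, 608 values of allele differences kept their direction and side of the threshold, 59 lost and 20 gained a call and 14 turned, and beside genes within 10 Mb these numbers were 40, 8, 3 and 13. Of the level differences between paralogues, 93 moved by less than the SD between libraries, 41 by more without turning and 1 turned.

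The median level of the members was 24.8 RPKM on CAST alone and 15.6 RPKM with exon-union lengths. With coding transcript lengths the difference Nup188 minus Nup205 turned to -0.25. The median SD between libraries was 0.19 when the libraries were rescaled to one sum and 0.080 to 0.15 with each library left out, lowest without replicate 4. Kpna7, Nup62cl, Nup107 and Nup214 have at most 45 reads in a value, so that counting error is large for them. Whether depth or SNPs set the values of Nup107 and Nup214 was not tested.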
